A study of Mus musculus with 6 samples.

Results

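Heat shock proteins and their co-chaperones were examined in the kidneys of WT and Selenbp1-KO mice. Members were all array probes whose gene name in the scanner files begins with Hspa, Hspb, Dnaja, Dnajb, or Dnajc and a number, or with Hsp90, or is Hsph1, Hspd1, or Hspe1. This rule uses no measured value and gave 155 probes of 72 genes, out of 56605 probes and 37325 gene names on the array. All mice were male, 8 weeks old, and fasted for 20 h, and the labels give C57BL/6J as the strain of both genotypes. They were 3 WT mice, numbered 2, 3, and 4, and 3 mice lacking Selenbp1, numbered 1, 2, and 3, and RNA from the left kidney of each was hybridized to 1 one-color array. Per the methods, C57BL/6J mice were purchased at an age of 7 weeks and the Selenbp1-KO line had been made earlier. Whether the groups were littermates, and whether the line was backcrossed, is not stated in the methods, so genotype and mouse source cannot be told apart. The question asked here was whether the transcripts of the chaperone system differed between the genotypes.

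Heat shock proteins are chaperones, which bind unfolded proteins, keep them from aggregating, and help them to fold. Hsp70 proteins work in cycles of ATP hydrolysis that J-domain proteins (Dnaja, Dnajb, Dnajc) start and Hsp110 proteins, as nucleotide exchange factors, reset, while Hsp90 acts later on selected clients and small heat shock proteins hold unfolded proteins without ATP. Some members are made at all times and others are induced when heat shock factor 1 (Hsf1) binds heat shock elements, arrays of inverted nGAAn units, in their promoters. The kidney is known for inducing these proteins after ischemia and in the hyperosmotic medulla.

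Promoter stretches of 5 genes are printed because these carry heat shock element letters, and the first 4 gave the widest spread between the mice among the inducible genes. The sequences are RefSeq promoters of build GRCm38.p6, read 5′ to 3′ on the gene's strand. For the first 4 genes they are the 250 bases before the transcription start, and for Hspe1 they are the matching letters alone. Capitals mark each match to GAANNTTC or TTCNNGAA, that is, 2 inverted units. Each of these motifs reads the same on both strands, and matches may overlap.
Hspa1a, chr17:34972157-34972406, minus strand: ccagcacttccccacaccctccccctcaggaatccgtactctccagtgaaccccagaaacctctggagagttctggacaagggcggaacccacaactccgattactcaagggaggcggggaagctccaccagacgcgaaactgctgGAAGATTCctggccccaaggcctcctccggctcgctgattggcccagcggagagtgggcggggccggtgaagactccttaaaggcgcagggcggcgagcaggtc
Hspa1b, chr17:34959239-34959488, minus strand: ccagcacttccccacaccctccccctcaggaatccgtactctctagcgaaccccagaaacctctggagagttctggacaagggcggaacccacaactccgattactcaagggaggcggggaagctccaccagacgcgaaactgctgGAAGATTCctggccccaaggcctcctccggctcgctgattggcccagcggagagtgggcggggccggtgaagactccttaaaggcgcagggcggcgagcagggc
Hsph1, chr5:149636337-149636586, minus strand: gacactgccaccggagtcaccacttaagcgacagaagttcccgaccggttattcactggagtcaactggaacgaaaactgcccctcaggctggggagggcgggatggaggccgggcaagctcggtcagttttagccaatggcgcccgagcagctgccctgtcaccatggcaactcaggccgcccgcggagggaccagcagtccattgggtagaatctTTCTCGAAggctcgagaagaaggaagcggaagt
Hspb1, chr5:135887669-135887918, plus strand: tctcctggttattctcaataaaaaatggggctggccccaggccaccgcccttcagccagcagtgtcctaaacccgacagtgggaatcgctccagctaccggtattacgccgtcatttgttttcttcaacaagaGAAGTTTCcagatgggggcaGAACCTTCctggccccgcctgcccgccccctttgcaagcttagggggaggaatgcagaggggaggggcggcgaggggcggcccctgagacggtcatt
Hspe1, chr1:55088059-55088076, plus strand: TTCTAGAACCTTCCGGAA

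The promoters of the neighbors Hspa1a and Hspa1b differed at 3 of 250 bases, and the match GAAGATTC began 104 bases before the start in both. The match in Hsph1 began 33 bases before the start, and those in Hspb1 117 and 97 bases before it. The letters of Hspe1, 3 overlapping matches that begin 89 bases before its start, also lie upstream of Hspd1, which is read in the opposite direction from the same stretch. A promoter window was present for 58 of the 72 members, in 75 windows. Of these windows, 16 (21.3%) held a match, in 14 genes, against 12.8% of all 32851 windows. Among 14 genes listed as inducible by heat, 7 of the 11 with a window held a match, against 3932 of all 27025 genes with a window. The longer run of 3 units, GAANNTTCNNGAA or TTCNNGAANNTTC, was found in 4 member windows, of Hspd1, Hspe1, and Dnajb6, and in 0.466% of all windows. These member windows are not independent, as Hspd1 and Hspe1 share the same letters and the windows of Dnajb6 overlap at the same site. A match describes these letters and does not show that a factor binds there.

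The arrays as a whole set limits on what follows. Selenbp1 signal was lower in Selenbp1-KO kidneys by 2.96 on the log2 scale, with no overlap between the genotypes, as its label has it on each array. On quantile normalized arrays its log2 signals were 16.37, 16.30, and 16.20 in WT and 13.32, 13.22, and 13.27 in Selenbp1-KO mice. Those of its close homolog Selenbp2 were 16.53, 16.42, and 16.22 against 13.16, 13.10, and 13.08. Whether these probes tell the 2 genes apart was not tested. Proximal tubule, distal nephron, and glomerulus markers were all well above background on the arrays. By the position code of each scan, whose first number is read here as the slide side, WT replicates 2 and 3 were on side 1. WT replicate 4 and all Selenbp1-KO replicates were on side 2. Without WT replicate 4, 11812 of 37028 genes had an unadjusted p under 0.05 in limma, against 2964 with it. Leaving it out also puts all WT arrays on side 1 and all Selenbp1-KO arrays on side 2. Genotype and side then cannot be told apart, here and wherever this array is left out below. Some marker lists of other cells also moved with genotype, while no gene passed p under 0.05 in those of endothelium, muscle, adrenal, and neutrophils. The log2 of the summed signal of 6 red blood cell markers was 8.06 to 8.48 in WT and 8.58 to 9.16 in Selenbp1-KO kidneys (4 of 6 passed p under 0.05). For 6 macrophage markers it was 3.86 to 4.18 and 4.33 to 4.44 (4 of 6 passed), and for 6 fibroblast and mesothelium markers 4.25 to 4.66 and 4.99 to 5.37 (3 of 6 passed). For 6 fat markers it was 3.67 to 5.60 and 4.44 to 6.94 (0 of 6 passed), with WT replicate 4 the lowest in median and Selenbp1-KO replicate 2 the highest. The part of these cells in the differences of chaperone genes was not tested. In whole tissue, fewer cells of a type and less RNA per cell cannot be told apart.

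With arrays scaled by their 75th percentile, few chaperone genes differed between the genotypes at an unadjusted p under 0.05. With 3 mice of each genotype this does not show equal levels. Quantile normalization, given below, called more members, most of them lower. Signals are given as log2 relative to the 75th percentile of the array, and differences as Selenbp1-KO minus WT on that scale, each gene being read by its brightest probe. At an unadjusted limma p under 0.05, 3 of 72 member genes differed (2 higher and 1 lower), against 8.00% of all genes tested (6.87% higher and 1.13% lower). Hspa1a, an inducible Hsp70, was lower in Selenbp1-KO kidneys, and Hspb8, a small heat shock protein, and Dnajb13, a J-domain gene known from the testis, were higher. After Benjamini–Hochberg adjustment none passed, with a lowest adjusted p of 0.275 among members, and 2 genes of the whole array (0.00540%) did. Without WT replicate 4, 8454 genes of the whole array (22.8%) and 1 member, the dim Dnajb7, passed after adjustment. In that fit genotype and slide side coincide. Counted by probe, 6 of 154 tested member probes passed, 4 higher and 2 lower, against 7.98% of all probes (6.47% higher and 1.51% lower). Of the 65 members well above background, Hspa1a and Hspb8 passed, against 5.79% of all such genes (4.52% higher and 1.28% lower).

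The median difference of the 72 members was −0.015, with 37 lower and 35 higher. Over all genes tested the median was 0.13 and 68.4% were higher. Over the 19263 genes well above background on all arrays of WT or of Selenbp1-KO, the median was 0.016 and 45.8% were lower. The signal of 65 members was well above background on all 6 arrays and that of 7 on none. Among the 65, 37 were lower and the median was −0.023, differences ran from −0.75 for Hspa1b to 0.29 for Hspb8, and 59 lay within 0.25 of 0 in either direction. The 7 dim members (Hspa1l, Hspb3, Dnajb7, Dnajb8, Dnajb13, Dnajc5b, and Dnajc5g) all had positive differences, 0.049 to 1.01, and after quantile normalization these ran from −0.22 to 0.81. Their signals are at the level of the background and give no fold.

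**Figure D1:**
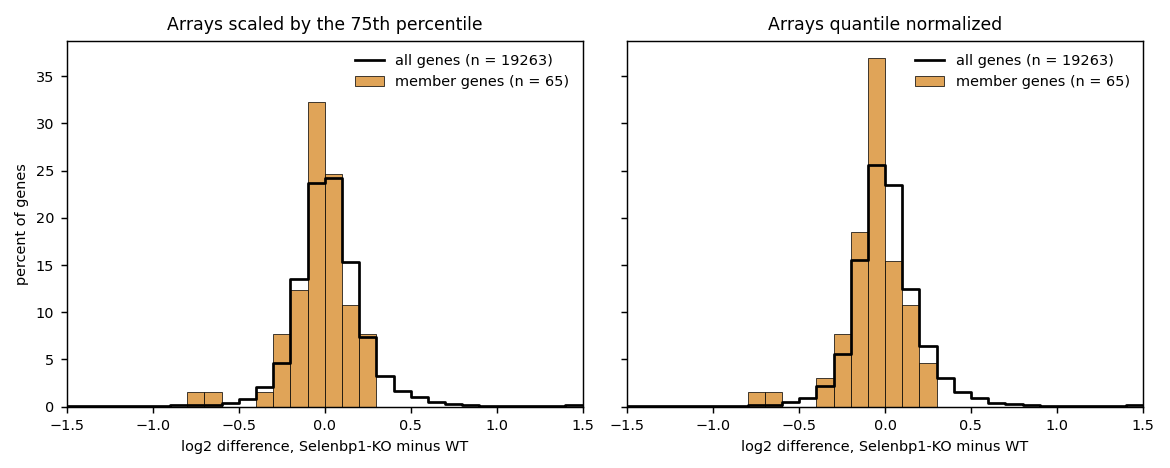
Distribution of log2 differences (Selenbp1-KO minus WT, horizontal axis) as percent of genes, for the 65 member genes well above background (bars) and all 19263 such genes (line). The left panel shows arrays scaled by the 75th percentile and the right panel quantile normalized arrays. The tallest member bar spans −0.1 to 0 in both panels. In the right panel it holds 36.9% of members, against 25.6% of all such genes. The bin from 0 to 0.1 there holds 15.4% against 23.5%. The bars at the far left are Hspa1b and Hspa1a.

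The genotypes did not overlap in 12 of 72 members (16.7%), against 14.1% of all genes. Among members well above background, 6 were lower and 5 higher with no overlap (16.9%), against 19.0% of all such genes. The lower ones were Dnajc2, Dnajb4, Hsp90aa1, Dnajc13, Hspa4, and Dnajc1, with differences of −0.23 to −0.12, and the higher ones Dnajc4, Hspb11, Dnajc19, Dnajc15, and Hspb8, by 0.14 to 0.29. The shares were near those of all genes.

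**Figure D2:**
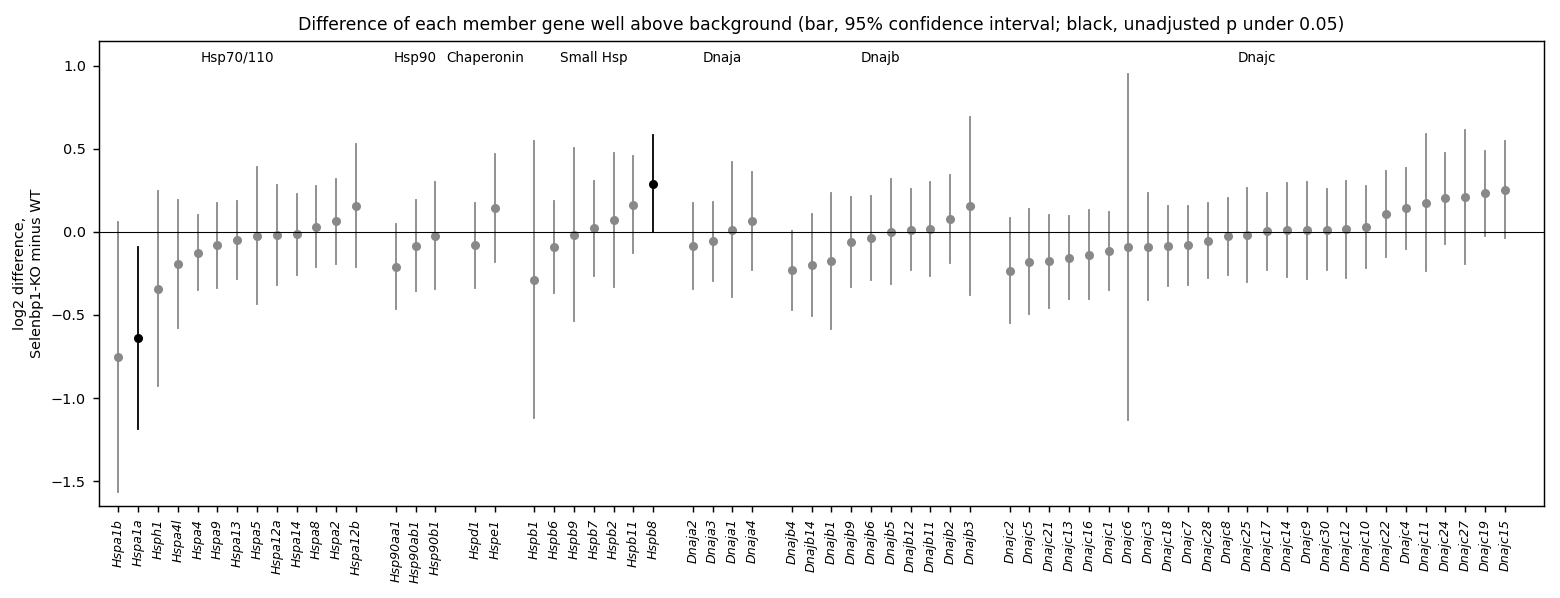
Log2 difference, Selenbp1-KO minus WT, of each member gene well above background, ordered by size within its family. Points are differences and bars 95% confidence intervals from limma, and black marks an unadjusted p under 0.05, which only Hspa1a and Hspb8 had among these 65 genes. The intervals of Hspa1b, Hspb1, and Dnajc6 are among the widest.

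Among the inducible Hsp70 genes, Hspa1a and Hspa1b moved together from mouse to mouse. Both encode Hsp72, the main stress-induced cytosolic Hsp70. The log2 signal of Hspa1a (probe at chr17:35106766-35106825 of mm9, minus strand) was 2.75, 2.29, and 2.71 for WT mice (replicates 2, 3, and 4) and 1.82, 2.34, and 1.66 for Selenbp1-KO mice (replicates 1, 2, and 3). Selenbp1-KO replicates 1 and 3 were the lowest, while Selenbp1-KO replicate 2 lay above WT replicate 3, so the genotypes overlapped. The difference was −0.64 (SE 0.22, unadjusted p = 0.029, adjusted p = 0.275 from limma), a Selenbp1-KO level 0.642 times that of WT. It was negative in all 19 alternative settings, from −0.84 to −0.50, and had a p under 0.05 in 12 of them. Settings that change only the filter, the outlier spots, or the test use the same values, so their sign could not differ. Leaving out WT replicate 2 or 4 gave an unadjusted p = 0.0867 or 0.0815 in limma, and leaving out Selenbp1-KO replicate 1 or 3 gave an unadjusted p = 0.0834 or 0.0893. Within slide side 2, where WT replicate 4 is the single WT array, the difference was −0.76 (unadjusted p = 0.0716 from limma with the side as a block).

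Hspa1b (probe at chr17:35093374-35093405) gave 2.13, 1.45, and 2.29 for WT mice and 0.93, 1.80, and 0.87 for Selenbp1-KO mice, in the same order. The order of the arrays was nearly that of Hspa1a, with overlap between WT replicate 3 and Selenbp1-KO replicate 2. The difference was −0.75 (SE 0.33, unadjusted p = 0.0639 from limma), with a 95% interval from −1.56 to 0.059. It was −1.003 without WT replicate 3 (unadjusted p = 0.0247) and −1.05 without Selenbp1-KO replicate 2 (unadjusted p = 0.0125). Without any one of the other 4 arrays it lay between −0.67 and −0.59, with an unadjusted limma p of 0.151 to 0.177. The 60-base probes of both genes share at most 21 bases when set against each other without gaps, but the transcripts themselves are near-identical copies, and how far each probe reads the other's transcript is not known.

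Hsph1 encodes the Hsp110 that exchanges nucleotides on Hsp70. Its signal was 3.72, 3.31, and 3.88 in WT mice and 3.13, 3.72, and 3.02 in Selenbp1-KO mice, in the order of replicates given above. Again Selenbp1-KO replicates 1 and 3 were the lowest and Selenbp1-KO replicate 2 lay within the WT range. The difference was −0.34 (SE 0.24, unadjusted p = 0.204 from limma), and its 3 probes above background were all lower, with differences of −0.34 to −0.22. Without Selenbp1-KO replicate 2 the difference was −0.56 (unadjusted p = 0.0393 from limma). Leaving out WT replicate 4 gave −0.22, and leaving out Selenbp1-KO replicate 3 gave −0.21 (unadjusted p = 0.441 and 0.466 from limma).

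The constitutive Hsp70 genes showed much smaller differences. Hspa8, the abundant cytosolic Hsc70, had signals of 6.58, 6.57, and 6.73 in WT mice and 6.62, 6.69, and 6.68 in Selenbp1-KO mice, a difference of 0.032 (SE 0.10) that was negative after quantile normalization (−0.039). Hspa9, the mitochondrial Hsp70 mortalin, had 4.98, 4.96, and 5.13 against 4.96, 4.87, and 5.01, a difference of −0.080 (SE 0.10). Both genes overlapped between genotypes. Hspa5, known as BiP, is the Hsp70 of the endoplasmic reticulum and a marker of the unfolded protein response. Its signal was 5.16, 5.11, and 5.64 in WT mice and 5.38, 5.25, and 5.21 in Selenbp1-KO mice. WT replicate 4 was the highest and the other arrays overlapped, for a difference of −0.024 (SE 0.17), which was 0.15 without WT replicate 4 and −0.36 within slide side 2 (unadjusted p = 0.0401 from limma with the side as a block). Of 14 Hsp70 and Hsp110 genes, 1 was lower (Hspa1a) and none higher at an unadjusted p under 0.05, against 1.13% and 6.87% of all genes. The median difference of the 14 was −0.036.

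**Figure D3:**
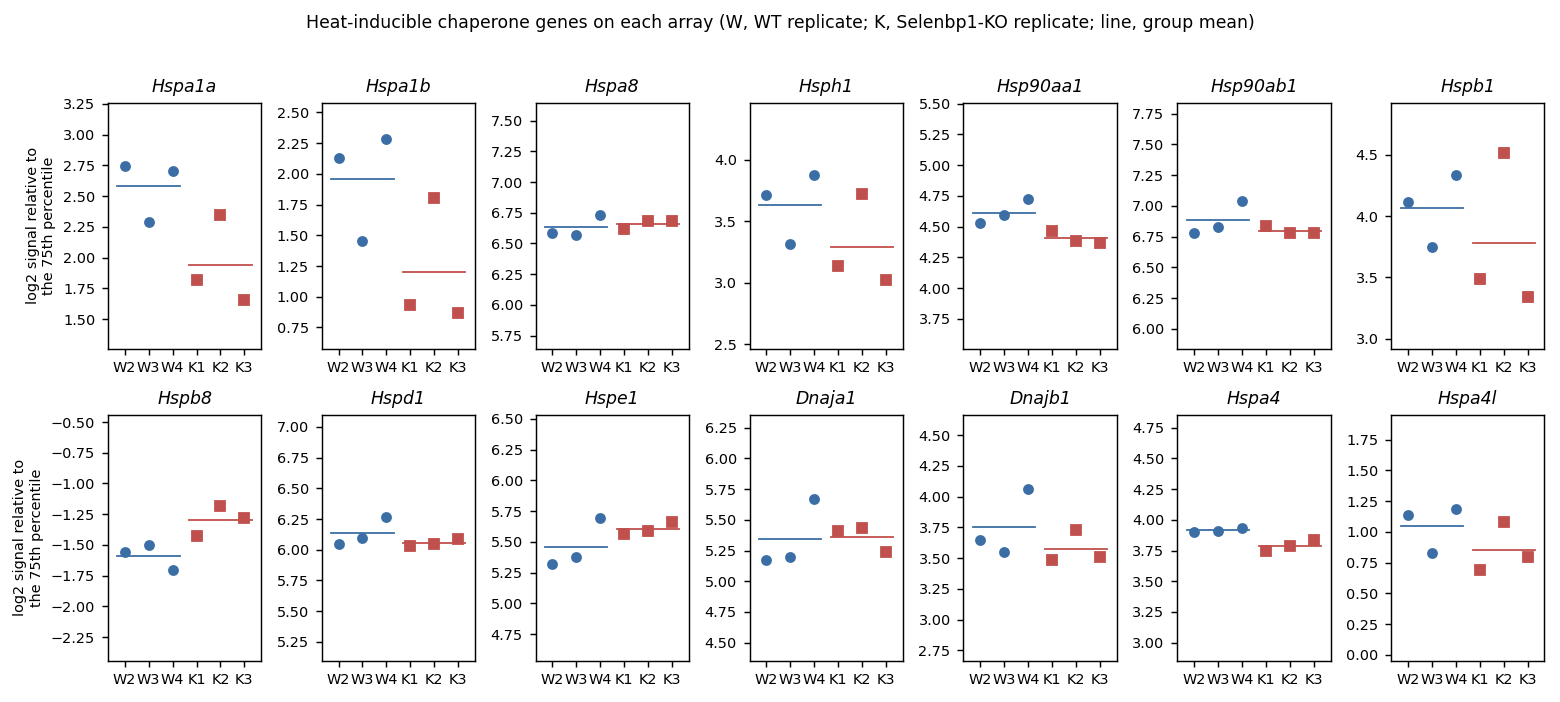
Log2 signal relative to the 75th percentile of the array (vertical axis, each panel spanning 2 log2 units) of the 14 heat-inducible genes on each array. Circles are WT replicates 2 to 4, squares are Selenbp1-KO replicates 1 to 3, and lines are group means. In Hspa1a, Hspa1b, Hsph1, Hspb1, Dnajb1, and Hspa4l, replicates K1 and K3 are the lowest, while Hspa8, Hspd1, and Hsp90ab1 differ little between arrays.

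Hsp90 genes were slightly lower or level. Hsp90aa1, the inducible cytosolic Hsp90α, had signals of 4.53, 4.59, and 4.72 in WT mice and 4.47, 4.38, and 4.37 in Selenbp1-KO mice. Every Selenbp1-KO array lay below every WT array, and a second probe of the gene did so too, with 4.09, 4.10, and 4.15 against 4.01, 3.91, and 3.83. The difference was −0.21 (SE 0.10, unadjusted p = 0.0911 from limma), negative in all 19 alternative settings and with a p under 0.05 in 6 of them. As for Hspa1a, some of these settings could not change the sign. After quantile normalization it was −0.25 (unadjusted p = 0.00467). Hsp90ab1, the constitutive Hsp90β, had 6.78, 6.83, and 7.04 against 6.83, 6.78, and 6.78, and overlapped (−0.085, SE 0.11). Hsp90b1, the Grp94 of the endoplasmic reticulum, had 4.90, 4.98, and 5.24 against 5.14, 4.98, and 4.94, and overlapped as well (−0.023, SE 0.13). WT replicate 4 was the highest array for all 3 genes.

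The mitochondrial chaperonin showed no common direction. Hspd1, the Hsp60 that forms the folding chamber, had signals of 6.05, 6.10, and 6.26 in WT mice and 6.03, 6.05, and 6.09 in Selenbp1-KO mice (difference −0.081, SE 0.10). Hspe1, its Hsp10 lid, had 5.32, 5.38, and 5.69 against 5.56, 5.59, and 5.66 (difference 0.14, SE 0.13). For both genes WT replicate 4 was the highest array and the genotypes overlapped. All 3 probes of Hspe1 were higher, by 0.093 to 0.17, and both probes of Hspd1 had negative differences, −0.081 and −0.13, although these genes lie on either side of the printed heat shock element letters. Without WT replicate 4, where genotype and slide side coincide, the difference of Hspe1 was 0.26 (unadjusted p = 0.043 from limma). It was 0.069 without WT replicate 2 and −0.090 within slide side 2.

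Small heat shock proteins included a gene that was higher and the gene with one of the widest spreads. Hspb8, which works with Bag3 in selective autophagy of misfolded proteins, had signals of −1.56, −1.497, and −1.71 in WT mice and −1.43, −1.18, and −1.28 in Selenbp1-KO mice (probe at chr5:116859063-116859122 of mm9, minus strand). Every Selenbp1-KO array lay above every WT array. The difference was 0.29 (SE 0.12, unadjusted p = 0.0498, adjusted p = 0.275 from limma), 1.22 times the WT level. It was positive in all 19 alternative settings, from 0.23 to 0.41, with a p under 0.05 in 9. As for Hspa1a, some of these settings could not change the sign. Leaving out WT replicate 2, 3, or 4 gave an unadjusted limma p of 0.0977, 0.0606, or 0.106, and leaving out replicate 2 or 3 of the Selenbp1-KO mice one of 0.137 or 0.121.

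Hspb1, the Hsp25 of mice and known to stabilize actin, gave 4.12, 3.74, and 4.34 in WT mice and 3.49, 4.51, and 3.34 in Selenbp1-KO mice. Selenbp1-KO replicate 2 was the highest of all arrays and Selenbp1-KO replicates 1 and 3 the lowest. The difference was −0.29 (SE 0.34, unadjusted p = 0.433 from limma), and −0.65 without Selenbp1-KO replicate 2 (unadjusted p = 0.0252). It was −0.069 without Selenbp1-KO replicate 3, −0.14 without Selenbp1-KO replicate 1, and −0.15 without WT replicate 4 (unadjusted p = 0.855, 0.733, and 0.717 from limma). Of 8 small heat shock protein genes, 1 was higher (Hspb8) and none lower at an unadjusted p under 0.05, against 6.87% and 1.13% of all genes. The median difference of the 8 was 0.035.

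Among the J-domain proteins, 1 of 45 genes passed an unadjusted p under 0.05, the dim Dnajb13, against 8.00% of all genes. The median difference of the 45 was 0.0094. Dnajb13 had signals of −7.29, −7.34, and −6.86 in WT mice and −6.20, −6.63, and −6.94 in Selenbp1-KO mice, well above background on no array, so no fold is given (unadjusted p = 0.0479 from limma). Dnajb1, the Hsp40 that pairs with Hsp72 and is itself induced by heat, had 3.65, 3.55, and 4.06 against 3.49, 3.73, and 3.51. Its Selenbp1-KO replicates 1 and 3 were the lowest and Selenbp1-KO replicate 2 was within the WT range. The difference was −0.18 (SE 0.17), and −0.48 within slide side 2 (unadjusted p = 0.0263 from limma with the side as a block), where the only WT array is WT replicate 4. Without that array it was −0.023 (unadjusted p = 0.857 from limma). Dnaja1, a farnesylated co-chaperone of Hsc70, had 5.17, 5.20, and 5.67 against 5.41, 5.43, and 5.24. Its genotypes overlapped with a difference of 0.012 (SE 0.17), whose sign turned under other scalings.

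Other probes of 3 J-domain and Hsp70 genes also passed. A second probe of Dnajc24, a J-domain protein of diphthamide synthesis, had −0.63, −0.46, and −0.47 in WT mice and −0.15, −0.34, and −0.17 in Selenbp1-KO mice. It was higher without overlap (0.30, SE 0.11, unadjusted p = 0.0341 from limma), and the brighter probe of the gene gave 0.20 (unadjusted p = 0.122). A probe of Dnajc1 (unadjusted p = 0.00118 from limma, lower) and one of Hspa14 (unadjusted p = 0.00883, higher) were well above background on no array and give no fold. The brighter probes of these genes gave −0.12 and −0.015. Of the 34 members with several probes well above background, all probes of 22 lay on the same side of 0, with 16 lower and 6 higher.

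By compartment, none of the 9 members of the endoplasmic reticulum passed an unadjusted p under 0.05 in limma, and their differences lay between −0.12 (Dnajc1) and 0.029 (Dnajc10). None of the 10 mitochondrial members passed either, with differences from −0.081 (Hspd1) to 0.25 (Dnajc15). Of all genes, 8.00% passed. With quantile normalization 5 mitochondrial members (3 lower and 2 higher) and 1 of the endoplasmic reticulum (lower) passed, against 9.07% of all genes. Dnajc15 and Dnajc19, J-domain proteins of the mitochondrial protein import motor, were chosen for naming after their values were seen. Dnajc15 had 4.20, 4.12, and 4.41 in WT mice against 4.56, 4.41, and 4.52 in Selenbp1-KO mice, and Dnajc19 had 5.33, 5.33, and 5.52 against 5.64, 5.60, and 5.63. Both were higher without overlap, by 0.25 (unadjusted p = 0.0784 from limma) and 0.23 (unadjusted p = 0.0671).

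The spread between mice was uneven among the members. The median range over the 6 arrays was 0.31 for members well above background and 0.36 for all such genes. A range of 1 or more was found in 4 of the 65 members, Hspa1b (1.41), Dnajc6 (1.39), Hspb1 (1.17), and Hspa1a (1.09), and in 7.53% of all such genes. Selenbp1-KO replicates 1 and 3 were the 2 lowest arrays in Hspa1a, Hspa1b, Hsph1, Hspb1, Dnajb1, and Hspa4l, which are 6 of the 14 heat-inducible genes. Hspa4l, a relative of Hsp110, had 1.13, 0.83, and 1.19 in WT mice and 0.69, 1.08, and 0.80 in Selenbp1-KO mice. The same held for 8 of the 65 members well above background (12.3%, also Dnajb4 and Dnajc18) and for 7.54% of all such genes. In these 6 inducible genes WT replicate 3 had rank 4 from the top. This pattern was noticed after the values were seen.

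Over the 14 heat-inducible genes, 1 was higher (Hspb8) and 1 lower (Hspa1a) at an unadjusted p under 0.05, against 6.87% and 1.13% of all genes. With quantile normalization 1 was higher and 5 lower at that threshold, against 9.07% of all genes. In that setting 2 of the 14 differences were positive, and their median was −0.18. Without quantile normalization 4 differences were positive and 10 negative, and the median difference was −0.15. It was −0.070 without WT replicate 4, where these genes deviated from their means over the arrays by a median of 0.22, and −0.31 within slide side 2. The median deviation was 0.00032 in WT replicate 2, −0.094 in WT replicate 3, −0.086 in Selenbp1-KO replicate 1, 0.074 in Selenbp1-KO replicate 2, and −0.13 in Selenbp1-KO replicate 3. The medians of the WT arrays thus overlapped with those of the Selenbp1-KO arrays, while 3 of the 14 genes, Hsp90aa1, Hspa4, and Hspb8, did not overlap between genotypes. Of 10 immediate early genes, 0 passed, and their highest median deviation was 0.71, in WT replicate 2. The part of handling in the spread between mice was not tested.

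**Figure D4:**
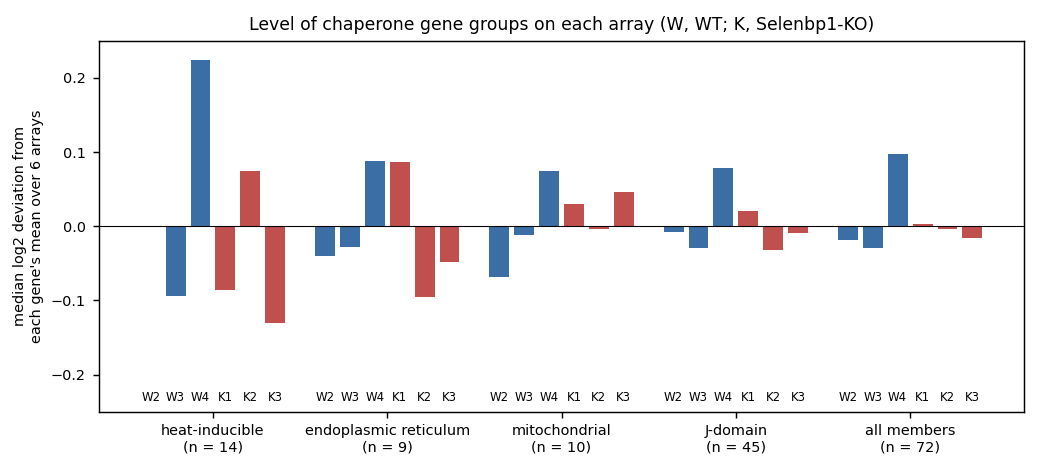
Median log2 deviation of each group's genes from their own means over the 6 arrays (vertical axis), for each WT (W) and Selenbp1-KO (K) replicate. Bars are medians over the genes of a group. WT replicate 4 is highest in each of the 5 groups drawn, with 0.22 for the heat-inducible genes and 0.098 for all 72 members, and Selenbp1-KO replicate 3 is lowest for the heat-inducible genes.

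Outside the member rule, 49 other genes of the pathway were listed, among them heat shock factors, Bag proteins, Hsp90 co-chaperones, and the cytosolic chaperonin. In limma 0 of the 49 passed an unadjusted p under 0.05, against 8.00% of all genes. Of the 49, 24 were higher and 25 lower, and the median was −0.0029. With normexp or with limma's trend and robust options 2 passed, and with quantile normalization 3. The shares of all genes in these settings were 11.9%, 14.1%, and 9.07%. Hsf1, the transcription factor of the heat shock response, had 0.69, 0.81, and 0.81 in WT mice and 0.86, 0.86, and 0.72 in Selenbp1-KO mice, with overlap and a difference of 0.049 (SE 0.10). Cryab, a small heat shock protein and the lowest of the list, is named after its values were seen. It had 6.00, 5.51, and 5.79 against 4.92, 6.11, and 4.997, again with Selenbp1-KO replicate 2 the highest and replicates 1 and 3 the lowest of all arrays (difference −0.42, SE 0.35).

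How the arrays were scaled changed the number of calls. With quantile normalization the median difference of all genes was 0.0049 in place of 0.13, and that of the 72 members −0.042 in place of −0.015. With it, 25 of the 72 members were higher, in place of 35, against 19507 of 37028 genes. In that setting, 15 of 72 members passed an unadjusted p under 0.05 in limma, against 9.07% of all genes. Of these, 11 (15.3% of members) were lower, against 3.73% of all genes, and 4 (5.56%) were higher, against 5.34%. The lower ones were Hspa1a, Hsp90aa1, Dnajb4, Hspd1, Hspa4, Hsp90ab1, Dnajc13, Hspa9, Dnajc1, Dnajc7, and Dnaja3, and the higher ones Hspb8, Dnajc15, Dnajc24, and Dnajc19. Their differences were small, from −0.25 to −0.094 apart from the −0.65 of Hspa1a, and from 0.17 to 0.28. None passed after adjustment, where the lowest adjusted p was 0.378. Some other lists also leaned lower with this scaling. The 49 other pathway genes had a median of −0.041 with 19 higher, and 3 passed, all lower. The 8 proximal tubule markers had a median of −0.079 with 1 higher, and 0 passed. Macrophage and red blood cell markers were higher in all 6 genes of each list. Over all genes well above background the median was −0.0031, and the share of these that passed was not computed. With the side of the slide as a block, 5 members passed (2 higher and 3 lower), against 6.08% of all genes (2.44% higher and 3.65% lower).

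**Figure D5:**
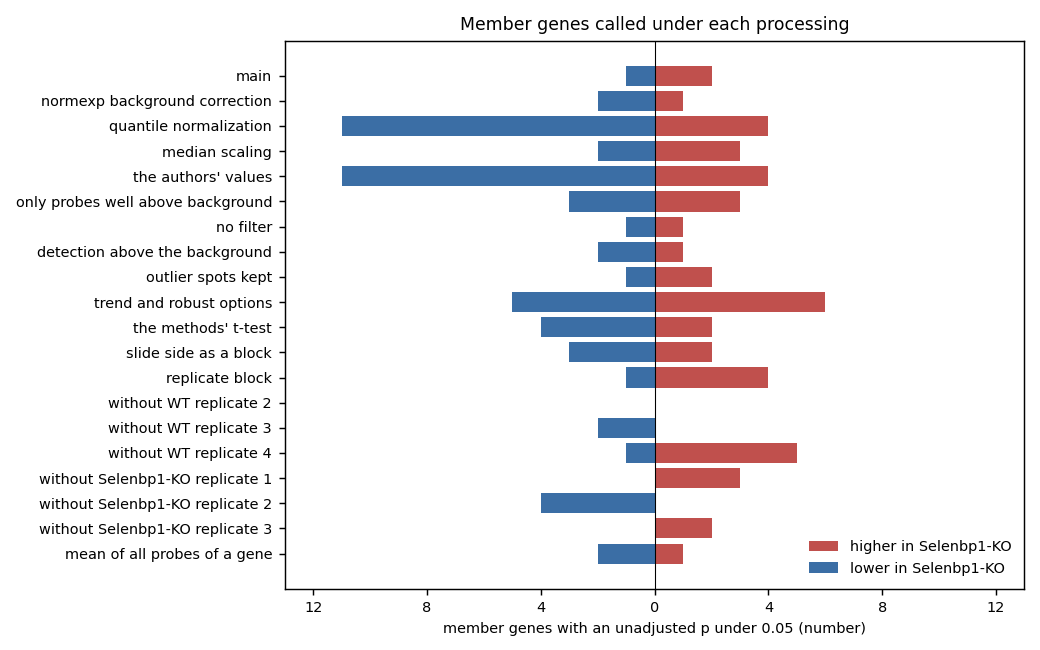
Number of member genes with an unadjusted p under 0.05 (horizontal axis) under each processing, with genes lower in Selenbp1-KO to the left and higher to the right. Main is scaling by the 75th percentile with all 6 arrays. The count is 3 in the main setting, 15 with quantile normalization and with the authors' values, and 0 without WT replicate 2. The shares of all genes are 8.00%, 9.07%, and 3.49%.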

How the data were processed

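Kidney RNA of 3 WT and 3 Selenbp1-KO mice was measured on 6 one-color Agilent arrays of 62976 spots. The authors deposited the Feature Extraction output (version 9.5.1.1 per the labels, 10.7.1.1 per the file headers): linear intensities, background-subtracted but not scaled between arrays, with a detection p-value per spot. A second deposited table holds linear intensities by probe, in 6 columns of equal distribution whose order of probes is that of the scanner files. The software of that table is not given in the sources used here.

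The log2 intensity minus the log2 75th percentile of the array was used. Outlier spots were left out (none of a member) and replicate spots averaged. As in the methods, the 56097 of 56605 probes detected (p under 0.05) on 1 array or more were compared with limma 3.58.1 in R 4.3.3 (lmFit and eBayes, two-sided), and called at an unadjusted p under 0.05. A gene is its brightest probe over the 6 arrays, with the p of that probe, adjusted over 37028 genes. The fit was run on simulated data with independent noise for each probe and no difference between slide sides. Such data cannot show how the fit behaves with effects shared by many probes. An exact permutation test of 3 against 3 cannot go below 0.1. "Well above background" is the scanner's flag. The accession of 125 member probes has the same name in RefSeq, and 30 are not in the table. Probe coordinates are those of the files (mm9).

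Named genes are 14 set members (Hspa1a, Hspa1b, Hspa8, Hspa5, Hspa9, Hsph1, Hsp90aa1, Hsp90ab1, Hsp90b1, Hspd1, Hspe1, Hspb1, Dnajb1, Dnaja1), members with any probe at an unadjusted p under 0.05, and Hsf1. Others are named as extremes or for lack of overlap. The members, lists, and tests were chosen with earlier results of these data known. Replicates are separate mice. Alternatives were normexp (offset 50), quantile and median scaling, the authors' values, other filters, outliers kept, trend and robust options (statmod 1.5.0), the methods' t-test, slide side and replicate number as blocks, each array left out, and averaging a gene's probes. Leaving out arrays after quantile normalization was added after seeing the data. Marker lists of endothelium (0 of 6 passed), smooth and skeletal muscle (0 of 10), adrenal (0 of 6), neutrophils (0 of 6), and lymphocytes (1 of 6, higher) were also read. Of the kidney markers, 0 of 8 (proximal tubule), 1 of 8 (distal nephron, higher), and 1 of 6 (glomerulus, higher) passed.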

Additional observations from a re-analysis of the deposited data

How the results depend on the processing

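The count of member probes, 6 with 75th percentile scaling, was 23 with quantile normalization and with the authors' values, 21 with trend and robust options, 13 with median scaling, 11 with the methods' t-test and with the slide side blocked, and 3 to 20 with 1 array left out (3 without WT replicate 2, 20 without WT replicate 4). The share of all probes moved too, from 7.98% to 8.35% with quantile normalization, 13.4% with trend and robust options, 26.1% with median scaling, 7.09% with the methods' t-test, 3.61% without WT replicate 2, and 31.3% without WT replicate 4. The count of member genes, 3, was 15 with quantile normalization and with the authors' values, 11 with trend and robust options, 6 with the methods' t-test and with probes well above background alone, 5 with median scaling and with the slide side blocked, and 0 to 6 with 1 array left out (0 without WT replicate 2, 6 without WT replicate 4). As shares of member genes and of all genes, quantile normalization and the authors' values called 20.8% and 9.07%. Trend and robust options called 15.3% and 14.1%, and the methods' t-test 8.33% and 7.72%. Probes well above background gave 9.23% and 10.4%, and median scaling 6.94% and 26.3%. With WT replicate 2 dropped these shares were 0% and 3.49%, and with WT replicate 4 dropped 8.33% and 31.9%. After Benjamini–Hochberg adjustment without WT replicate 4, 9 member probes and 1 member gene (Dnajb7) passed. Of all probes 22.3% did, and of all genes 22.8%. With quantile normalization and WT replicate 2, 3, or 4 left out, 14, 20, and 23 probes, 7, 15, and 10 genes, and 2, 5, and 6 other pathway genes passed. With Selenbp1-KO replicate 1, 2, or 3 left out, 22, 18, and 15 probes and 15, 11, and 8 genes passed. Of the other pathway genes, 1, 2, and 5 did. In the same order of fits, the shares of all probes were 6.17%, 8.29%, 10%, 6.8%, 8.38%, and 8.72%. Those of all genes were 6.44%, 8.85%, 10.9%, 6.84%, 8.53%, and 9.28%. The count of other pathway genes, 0, was 3 with quantile normalization, 2 with normexp, the authors' values, trend and robust options, and averaged probes, 1 with the slide side blocked, and 0 to 2 with 1 array left out. The median difference of members, −0.015, was −0.090 with the slide side blocked and turned positive with the replicate number as a block (0.018), without WT replicate 4 (0.0088), and with averaged probes (0.0018). The cause of these changes was not tested.

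The labels do not say that numbers 2 and 3, shared by both genotypes, pair the mice, and the deviations of same-numbered arrays correlated at 0.17 and 0.19, while those of WT replicate 3 with Selenbp1-KO replicate 1 correlated at 0.19 and of WT replicate 4 with Selenbp1-KO replicate 2 at 0.16. With the replicate number as a block, 14 probes, 5 member genes, and 1 other pathway gene passed, and 12286 of all genes (33.2%). With this block the differences of Hspa5, Hsp90b1, and Dnajb1 were 0.096, 0.019, and 0.021.

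Signs of small differences turned as follows. Hspa8 was −0.012 with normexp, −0.039 with quantile normalization, −0.037 with the authors' values, −0.035 with averaged probes, and −0.071 with the slide side blocked. Dnaja1 was −0.033 with normexp, −0.032 with averaged probes, −0.041 with quantile normalization, −0.040 with the authors' values, −0.0043 with median scaling, −0.31 with the slide side blocked, and −0.075 to 0.17 with 1 array left out. Hspe1 was −0.090 with the slide side blocked. With 1 array left out, Hspa5 ran from −0.12 to 0.15 and Hsp90b1 from −0.094 to 0.078. Of the recomputed values of named genes, 250 kept their direction and side of the threshold, 21 gained and 28 lost a p under 0.05, and 23 changed sign. Fits that change only the filter or the test keep the difference of a probe, so they could not change its sign. The number of arrays and the signal over background of dim probes limit the precision.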
